A study of Rattus norvegicus with 9 samples.

Results

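The cyclin-dependent kinase (CDK) inhibitors Cdkn1a, Cdkn1b, Cdkn2a, Cdkn2b and Cdkn2c, the p53 antagonist Mdm2, and the D cyclins Ccnd1, Ccnd2 and Ccnd3 were followed in cultured rat cardiac fibroblasts of 3 ages. These 9 genes were taken by symbol from the 17337 genes of the count table, and all 9 were among the 11337 genes with enough counts to be tested. The study poses the question of how the transcriptome of these cells differs with developmental age. Fibroblasts, which make the collagen-rich matrix of the heart, were isolated from Sprague Dawley rats at embryonic day 18 (fetal), postnatal day 1 (neonatal) or 7 weeks of age (adult), with 3 libraries per age. All cultures were of the isolates the labels call P0, grown to confluency in the same medium with serum, antibiotics and ascorbic acid. The labels name no sort of the cells and no pooling, and they do not say whether the libraries of an age came from separate animals, so the p-values measure the spread between these libraries, which may in part be technical.

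D cyclins are made when growth factors act on a cell. They bind the kinases CDK4 and CDK6, which phosphorylate the retinoblastoma protein RB and so release the E2F factors that drive the genes of DNA replication. The INK4 inhibitors, encoded by Cdkn2a, Cdkn2b and Cdkn2c, bind CDK4 and CDK6 and keep D cyclins off them, while the CIP/KIP inhibitors, encoded by Cdkn1a and Cdkn1b, bind complexes of cyclins and kinases, chiefly those of CDK2. The transcription factor p53 switches on Cdkn1a and also Mdm2, whose product is the ubiquitin ligase that destroys p53.

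Before the results, the make-up of the libraries is given, since several lists of marker genes moved with age. Library depth ran from 13392825 to 22850491 assigned counts, and the 3 adult libraries were the shallowest. The 12 fibroblast markers summed to 37323 to 79314 CPM (counts scaled to a common library size, with TMM factors) in fetal libraries. Their sum was 96063 to 103367 CPM in neonatal and 40583 to 52225 CPM in adult libraries. Among these markers, Col1a2 lay below 1 CPM on average at each age. Macrophage markers (14 genes, all above every fetal and neonatal library in each adult library) summed to 4857 to 6489 CPM in adult, 172 to 189 in neonatal and 14.8 to 73.5 in fetal libraries, and Cd163 had 0 counts in all fetal and neonatal libraries. Cardiomyocyte markers (13 genes) summed to 10137 to 14235 CPM in fetal, 6532 to 7210 in neonatal and 305 to 320 CPM in adult libraries. All 13 were below every other library in each adult library, where Tnnt2 made up nearly all of the sum and Csrp3 had 0 counts. Of 8 epithelial markers, 6 were above every neonatal and adult library in each fetal library, and their sum was 51.2, 51.1 and 429 CPM in fetal replicates 1, 2 and 3, against 8.92 to 9.97 in neonatal and 2.07 to 2.47 in adult libraries.

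**Figure D1:**
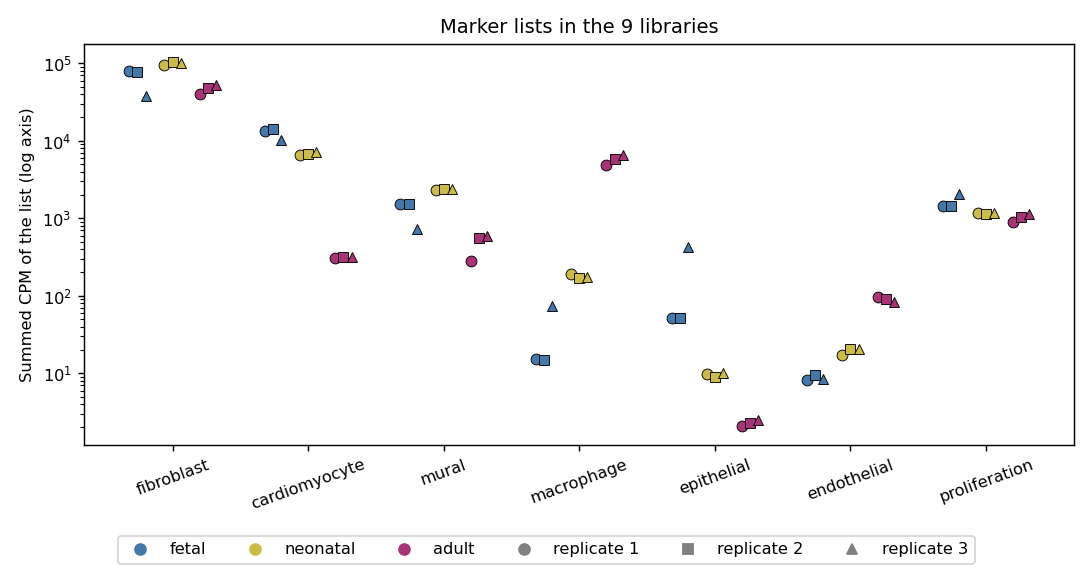
Summed level of 6 lists of cell type markers and of 16 proliferation genes in each of the 9 libraries (CPM, log axis), with ages by colour and replicates by symbol. Fetal replicate 3 is above the other fetal libraries for epithelial and macrophage markers and proliferation genes and below them for fibroblast and mural markers, and the adult libraries have the most macrophage and the fewest cardiomyocyte transcripts.

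Fetal replicate 3 thus stood apart from the other fetal libraries. It also had the highest summed level of 16 proliferation genes, 2080 CPM against 1434 and 1422 in fetal replicates 1 and 2, 1153 to 1161 in neonatal and 905 to 1133 in adult libraries. Mural markers (7 genes) summed to 720.1 CPM in it, against 1509 and 1516 in the other fetal, 2312 to 2388 in neonatal and 278 to 590.1 in adult libraries, and endothelial markers (8 genes) to 8.26 to 9.48 in fetal, 17.4 to 20.8 in neonatal and 82.1 to 96.6 in adult libraries. Erythroid markers (5 genes in the table) stayed at or below 1.54 CPM in sum. The part of these other transcripts in the results below was not tested, and in bulk samples fewer cells of a type and less RNA per cell cannot be told apart. Differences of the 9 genes that involve fetal cells are given again without fetal replicate 3 where its omission changed a call or moved the value by a wide margin. For other genes this was done in part.

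Across the 3 ages, 7 of the 9 genes differed in a test of any difference between ages (edgeR quasi-likelihood test, Benjamini-Hochberg adjusted p under 0.05), against 77.6% of all genes tested. The genes left out were Cdkn1b (adjusted p = 0.703) and Cdkn2a (adjusted p = 0.0941). Cdkn2b and Ccnd2 had the widest spans, at 4.92-fold and 4.94-fold more in fetal than in adult cells, while Ccnd1, Cdkn2c and, against neonatal cells, Cdkn1a were higher in adult cells. From fetal to neonatal cells 4 genes were called, Ccnd3 higher (18.3% of all genes tested were higher) and Cdkn1a, Cdkn2b and Mdm2 lower (18% of all genes were lower), against 36.3% of all genes in either direction. Between adult and fetal cells 5 were called, with Cdkn2c and Ccnd1 higher (34.9% of all genes) and Cdkn2b, Mdm2 and Ccnd2 lower (35.5%), against 70.5% of all genes. Between adult and neonatal cells 7 were called, with Cdkn1a, Cdkn2c, Mdm2 and Ccnd1 higher (31.6% of all genes) and Cdkn2b, Ccnd2 and Ccnd3 lower (31.8%), against 63.5% of all genes. The share of the 9 genes that was called was above that of the whole table in the comparisons with neonatal cells and below it between adult and fetal cells, and these differences in share were not tested. Of all genes called between neonatal and fetal cells 50.4% were higher, and 29.0% when libraries were scaled by their size alone. Without fetal replicate 3, 7, 7 and 8 of the 9 genes were called in the 3 comparisons, against 40.6%, 74.8% and 72.2% of the 11519 genes then tested. Fully separate library values were found for 4 of the 9 genes between neonatal and fetal cells (57.4% of all genes), for 5 between adult and fetal cells (71.8%) and for 8 between adult and neonatal cells (76.1%).

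The median size of change of the 9 genes, without regard to direction, was 0.485 on the log2 scale between neonatal and fetal cells, against 0.294 for all genes tested. It was 0.827 against 0.628 between adult and fetal cells and 0.874 against 0.521 between adult and neonatal cells. The 3 comparisons share libraries pairwise and are not independent of each other. Because the 9 genes were chosen with earlier results of these data known, these medians are a description. Their difference from all genes was not tested.

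**Figure D2:**
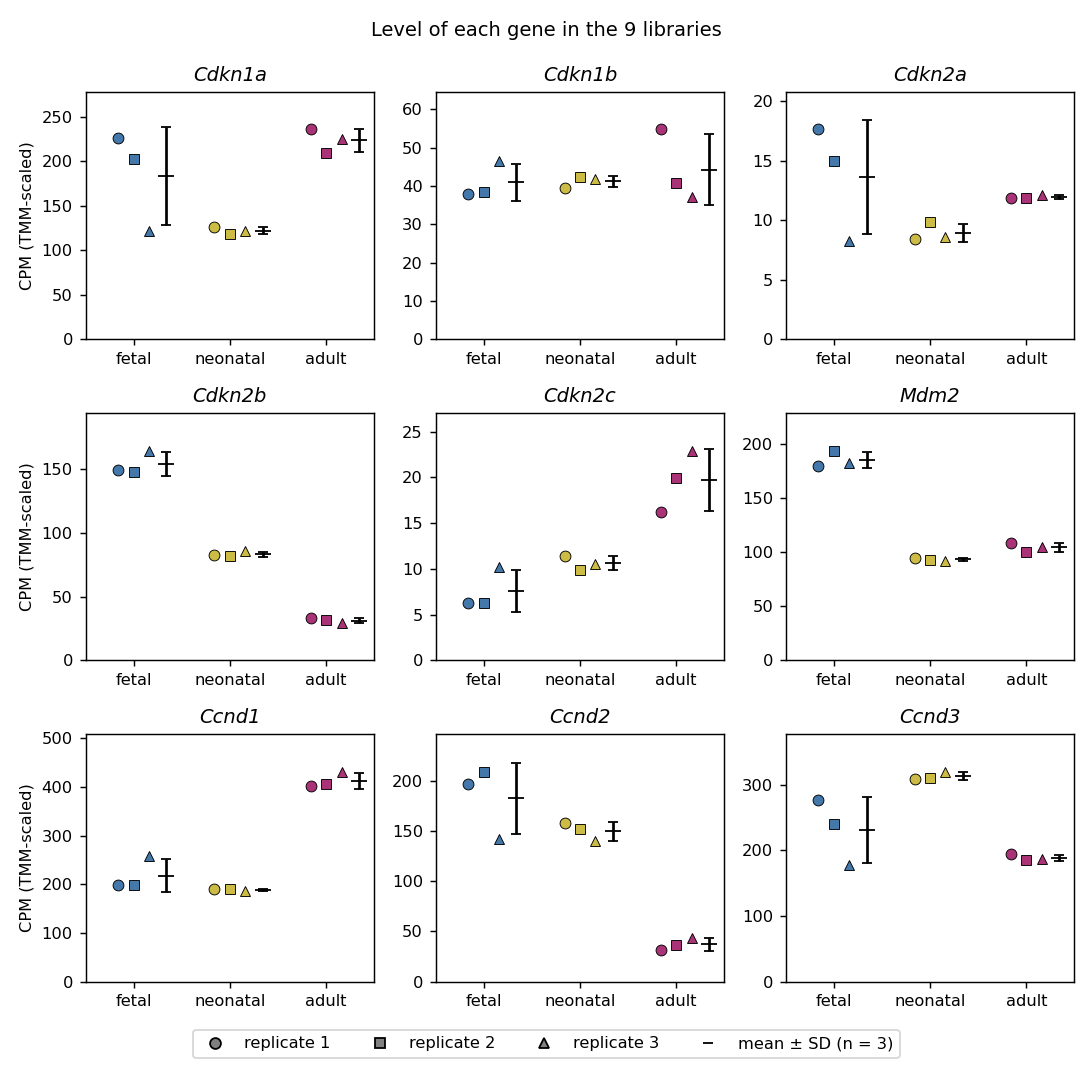
Level of each of the 9 genes (CPM, scaled by TMM, axes from 0) in the 3 libraries of each age, with the mean ± SD beside the points. Cdkn2b falls in steps with age, Ccnd1 is high in all adult libraries, Ccnd2 is low in all of them, and fetal replicate 3 (triangle) lies at the neonatal level for Cdkn1a and Cdkn2a.

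Among the INK4 inhibitors, Cdkn2b, which encodes p15 and is known as a target of TGF-beta signalling, showed the clearest course with age. Its level was 149.5, 148 and 164 CPM in fetal replicates 1, 2 and 3, 82.8, 81.8 and 85.5 CPM in the neonatal libraries and 33.1, 31.5 and 29.2 CPM in the adult libraries. No library of one age overlapped one of another, and fetal replicate 3, which stood apart elsewhere, was the highest here by a small margin. Cdkn2b fell by 0.88 on the log2 scale from fetal to neonatal cells (SE 0.0686, edgeR adjusted p = 4.34e-05), a 1.85-fold difference. It was lower again in adult than in neonatal cells, by 2.67-fold (log2 -1.42, SE 0.0715, edgeR adjusted p = 4.01e-07), so that adult cells held 4.92-fold less than fetal cells (log2 -2.30, SE 0.0728, edgeR adjusted p = 1.47e-08). The gene lies on chromosome 5 from 107851701 to 107857385 (rn6, minus strand), with 2323 exon bases.

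Cdkn2c, which encodes the INK4 protein p18, went the opposite way at a lower level. Fetal replicates 1, 2 and 3 held 6.32, 6.26 and 10.2 CPM, the neonatal libraries 11.4, 9.90 and 10.6 CPM, and the adult libraries 16.2, 19.9 and 22.9 CPM. All adult libraries lay above all others, while fetal replicate 3 lay among the neonatal libraries. Cdkn2c rose 2.60-fold from fetal to adult cells (log2 1.38, SE 0.208, edgeR adjusted p = 0.000257) and 1.86-fold from neonatal to adult cells (log2 0.89, SE 0.205, edgeR adjusted p = 0.00396). Between neonatal and fetal cells the log2 difference of 0.48 was not called (edgeR adjusted p = 0.0973), but without fetal replicate 3 it was 0.75 and was called (adjusted p = 0.00289), and the rise from fetal to adult cells was then 1.64 on the log2 scale. Cdkn2c is also on chromosome 5, from 129347732 to 129352886 (rn6, minus strand). Its 117 to 306 counts per library give a counting error of 8.28% in fetal libraries, so that the differences among neonatal libraries (7.06%, coefficient of variation) were of the size of counting error (7.21%).

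Promoter sequences of the age-dependent genes are shown as a description, so that the letters before each start can be compared. They are the 250 bases before the start that RefSeq gives on the assembly GRCr8, which is not the build of the counts, and 7 of the 9 genes matched an entry by symbol, of which 5 were called in the test of any age difference and are printed. Ccnd1 and Ccnd2 were not matched. Each is written 5′ to 3′ on the gene's own strand, in lower case, with matches to 9 motifs in capitals. The motifs were searched on both strands and are the GC box GGGCGG (present in 30.5% of 33469 promoters of this length), the CCAAT box CCAAT (34%), the TATA box TATAAA (12.9%), the E-box CACGTG (5.59%), the cAMP response element TGACGTCA (1.59%), the E2F element TTTCGCGC (0.248%), the AP-1 element TGANTCA (6.34%), the STAT element TTCNNNGAA (7.67%) and the p53 half-site (6.64%). No match in these 5 promoters overlapped a match to another of these motifs. The Cdkn2b window (chr5:109134856-109135105, minus strand, GRCr8) held 3 GC boxes, at 111, 80 and 47 bases before the start, and 1 cAMP response element at 96 bases. The Cdkn2c window (chr5:129644892-129645141, minus strand) held 1 GC box at 183 bases and 1 p53 half-site at 11 bases before the start. These are matches of letters and were not tested as binding sites. Which start these cells use is not known, so a window may not lie before the start of the counted RNA.
Cdkn2b: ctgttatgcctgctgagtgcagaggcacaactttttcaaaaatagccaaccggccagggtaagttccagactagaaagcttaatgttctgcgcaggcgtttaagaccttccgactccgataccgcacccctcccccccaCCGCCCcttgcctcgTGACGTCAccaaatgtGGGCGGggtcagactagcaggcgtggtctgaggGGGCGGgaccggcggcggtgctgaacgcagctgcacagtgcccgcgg
Cdkn2c: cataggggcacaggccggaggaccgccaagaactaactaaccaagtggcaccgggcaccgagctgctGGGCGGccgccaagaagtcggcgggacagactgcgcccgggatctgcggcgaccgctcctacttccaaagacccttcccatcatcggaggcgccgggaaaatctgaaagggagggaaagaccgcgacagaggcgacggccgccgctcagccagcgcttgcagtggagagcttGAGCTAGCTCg

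Cdkn2a is the neighbour of Cdkn2b on chromosome 5, from 107823323 to 107832405 (rn6, minus strand), with 19295 bases between their annotated exons. The gene makes p16INK4A, an INK4 inhibitor, and from another reading frame p19ARF, which binds MDM2 and frees p53. A count per gene does not separate the 2 products. Its level was 17.6, 14.9 and 8.29 CPM in fetal replicates 1, 2 and 3, 8.42, 9.81 and 8.54 CPM in the neonatal libraries and 11.9, 11.8 and 12.1 CPM in the adult libraries. Fetal replicates 1 and 2 were the highest of all libraries and replicate 3 was the lowest. With that spread no comparison was called, the log2 differences being -0.61 between neonatal and fetal cells (edgeR adjusted p = 0.0708), -0.19 between adult and fetal cells (adjusted p = 0.488) and 0.42 between adult and neonatal cells (adjusted p = 0.155). Without fetal replicate 3 all 3 were called, at -0.86 (adjusted p = 0.000195), -0.45 (0.00508) and 0.41 (0.00656). The adult and neonatal libraries did not overlap, as was the case for 76.1% of all genes in that comparison. The values of the neighbours side by side were these: adult cells held 4.92-fold less Cdkn2b than fetal cells, and for Cdkn2a the interval of the same difference ran from -0.72 to 0.34 on the log2 scale (95% confidence interval).

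Among the CIP/KIP inhibitors, Cdkn1a, which encodes p21, was lowest in neonatal cells. Fetal replicates 1, 2 and 3 held 226, 203 and 122 CPM, the neonatal libraries 126, 119 and 121 CPM, and the adult libraries 236, 209.8 and 225 CPM. Fetal replicates 1 and 2 were thus near the adult level and fetal replicate 3 was at the neonatal level, and every adult library was above every neonatal one. Cdkn1a was 1.83-fold higher in adult than in neonatal cells (log2 0.87, SE 0.19, edgeR adjusted p = 0.00314). It fell by 0.59 on the log2 scale from fetal to neonatal cells (SE 0.189, edgeR adjusted p = 0.0375), a call that was lost in 10 of 19 alternatives, among them leaving out fetal replicate 1 or 2, any neonatal library or adult replicate 2 or 3. It strengthened to -0.81 (adjusted p = 4.01e-06) without fetal replicate 3. Between adult and fetal cells the difference was 0.28 (95% confidence interval -0.14 to 0.71, edgeR adjusted p = 0.202), and 0.06 without fetal replicate 3 (adjusted p = 0.453). Cdkn1a lies on chromosome 20 from 6348422 to 6358864 (rn6, plus strand).

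Cdkn1b, which encodes p27, was the flattest of the 9 genes. Its level was 37.8, 38.4 and 46.6 CPM in fetal, 39.6, 42.2 and 41.7 CPM in neonatal and 54.7, 40.9 and 37.1 CPM in adult replicates 1, 2 and 3. The libraries of all 3 ages overlapped, and the highest and the lowest value were both adult. The log2 differences were 0.01 between neonatal and fetal cells (95% confidence interval -0.31 to 0.33), 0.11 between adult and fetal cells (-0.21 to 0.43) and 0.10 between adult and neonatal cells (-0.22 to 0.42), with edgeR adjusted p of 0.967, 0.494 and 0.544. These intervals leave room for a change of up to 0.43 on the log2 scale. Within the neonatal age the spread of 3.42% was at the counting error of 3.66%, whereas the adult spread of 20.9% exceeded its counting error of 4.14%. Cdkn1b lies on chromosome 4 from 168689163 to 168693964 (rn6, plus strand).

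Mdm2, the antagonist of p53, was highest in fetal cells. Its level was 180, 194 and 182 CPM in fetal, 95.2, 93.1 and 92.2 CPM in neonatal and 108, 99.97 and 105 CPM in adult replicates 1, 2 and 3. The fetal libraries were all above all others, and fetal replicate 3 lay between the other fetal libraries, unlike its position for Cdkn1a. Mdm2 fell by 0.99 on the log2 scale from fetal to neonatal cells (SE 0.0588, edgeR adjusted p = 1.09e-05), which is 1.98-fold, and was 1.77-fold lower in adult than in fetal cells (log2 -0.83, SE 0.0588, edgeR adjusted p = 1.86e-06). The adult level was 1.12-fold above the neonatal one (log2 0.16, SE 0.0588, edgeR adjusted p = 0.0375), a small difference whose call was lost in 10 of 19 alternatives, among them leaving out fetal replicate 1, any neonatal library or adult replicate 1 or 3. Mdm2 lies on chromosome 7 from 60719066 to 60743328 (rn6, minus strand).

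Cdkn1a and Mdm2 are both textbook p53 targets, and their promoter windows are shown side by side as a description. The windows cover only the bases before 1 start of each gene, so p53 sites elsewhere in either gene were not searched. The Cdkn1a window (chr20:7150682-7150931, plus strand, GRCr8) held 1 p53 half-site at 201 bases before the start and no match to the other motifs. Cdkn1a has several starts, and the one used in these cells is not known. The Mdm2 window (chr7:55200792-55201041, minus strand) held 2 GC boxes at 131 and 120 bases and 1 CCAAT box at 105 bases before the start. In neonatal and adult cells the 2 genes stood in unlike proportion: adult cells had 1.83-fold more Cdkn1a and 1.12-fold more Mdm2 than neonatal cells. The difference between these 2 ratios was not tested.
Cdkn1a: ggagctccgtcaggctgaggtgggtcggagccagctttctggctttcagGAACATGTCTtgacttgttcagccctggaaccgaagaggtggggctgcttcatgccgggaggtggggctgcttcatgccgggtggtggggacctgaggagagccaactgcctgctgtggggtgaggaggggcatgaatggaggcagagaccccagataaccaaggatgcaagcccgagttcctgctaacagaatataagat
Mdm2: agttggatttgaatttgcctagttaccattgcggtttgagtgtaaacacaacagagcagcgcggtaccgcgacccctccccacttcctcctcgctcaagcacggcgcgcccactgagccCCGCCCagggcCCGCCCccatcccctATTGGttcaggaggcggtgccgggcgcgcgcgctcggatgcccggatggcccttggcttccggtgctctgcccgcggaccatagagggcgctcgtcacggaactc

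**Figure D3:**
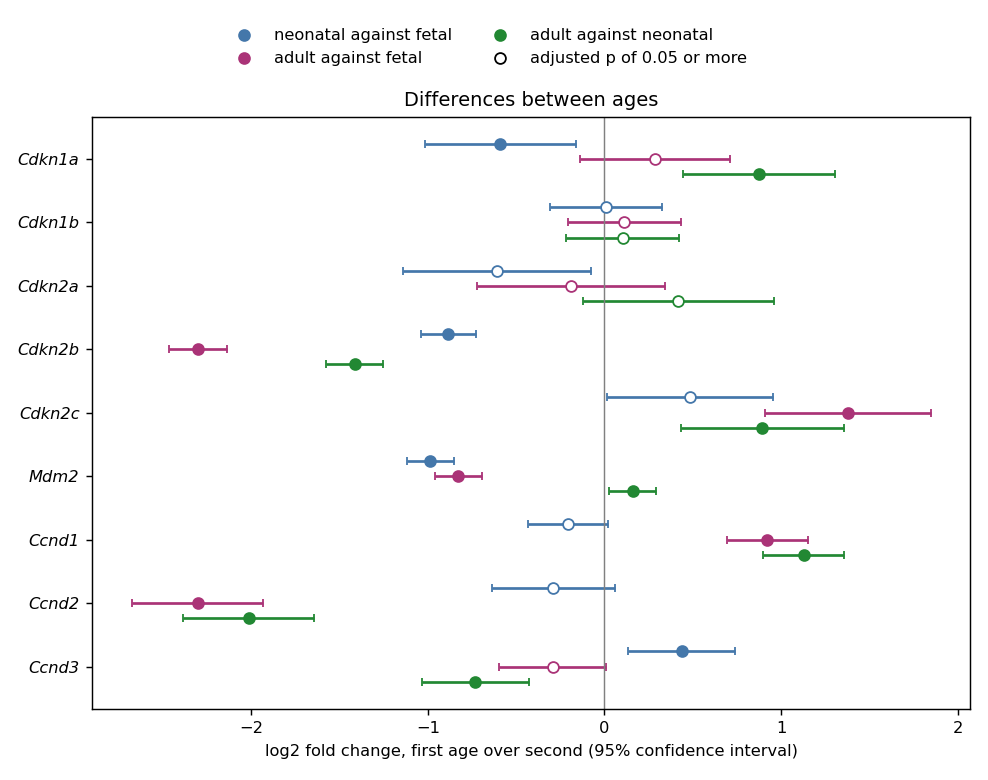
Log2 fold change of the 9 genes in each pair of ages, with the 95% confidence interval from the edgeR fit; open circles mark adjusted p of 0.05 or more. Cdkn2b and Ccnd2 reach -2.30 between adult and fetal cells, and the 3 intervals of Cdkn1b all cover 0.

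Of the D cyclins, Ccnd1 was the one that was higher in adult cells. Its level was 198, 198 and 258 CPM in fetal, 190.4, 190.0 and 186 CPM in neonatal and 402, 405 and 431 CPM in adult replicates 1, 2 and 3. Every adult library was far above every other, and fetal replicate 3 was the highest of the younger libraries. Ccnd1 rose 1.89-fold from fetal to adult cells (log2 0.92, SE 0.102, edgeR adjusted p = 3.23e-05) and 2.18-fold from neonatal to adult cells (log2 1.13, SE 0.102, edgeR adjusted p = 1.38e-05). Between neonatal and fetal cells the log2 difference was -0.21 (95% confidence interval -0.43 to 0.02, edgeR adjusted p = 0.139), although their libraries did not overlap, as was so for 57.4% of all genes. It was -0.07 without fetal replicate 3, when the adult against fetal difference was 1.06. Ccnd1 lies on chromosome 1 from 218090750 to 218100272 (rn6, minus strand).

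Ccnd2 took the opposite course. It was at 197, 209 and 142 CPM in fetal, 157, 152 and 139 CPM in neonatal and 31.2, 36.0 and 43.8 CPM in adult replicates 1, 2 and 3. The adult libraries were far below all others, and fetal replicate 3 fell within the neonatal range. Ccnd2 was 4.94-fold lower in adult than in fetal cells (log2 -2.30, SE 0.165, edgeR adjusted p = 2.08e-06) and 4.04-fold lower than in neonatal cells (log2 -2.01, SE 0.163, edgeR adjusted p = 7.80e-06). The log2 difference between neonatal and fetal cells was -0.29 (edgeR adjusted p = 0.168), and -0.44 without fetal replicate 3, when it was called (adjusted p = 0.0119) and the adult against fetal difference was -2.46. Ccnd2 lies on chromosome 4 from 159674885 to 159697207 (rn6, minus strand).

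Ccnd3 peaked in neonatal cells. Its level was 277, 239.5 and 177 CPM in fetal, 309, 311 and 319.8 CPM in neonatal and 194, 185 and 187 CPM in adult replicates 1, 2 and 3. The neonatal libraries were above all others, while fetal replicate 3 lay below every adult library. Ccnd3 rose 1.35-fold from fetal to neonatal cells (log2 0.44, SE 0.134, edgeR adjusted p = 0.0311) and was 1.66-fold lower in adult than in neonatal cells (log2 -0.73, SE 0.135, edgeR adjusted p = 0.00113). Without fetal replicate 3, the lowest of the fetal libraries, the rise was smaller, at 0.28 (adjusted p = 0.00492). The rise from fetal to neonatal cells was no longer called in 7 of 19 alternatives, among them scaling by library size alone and the omission of fetal replicate 2 or of any neonatal library. Between adult and fetal cells the difference was -0.29 (edgeR adjusted p = 0.0759), and it was called at -0.46 without fetal replicate 3 (adjusted p = 5.21e-05). Ccnd3 lies on chromosome 9 from 15404865 to 15410895 (rn6, minus strand), and its promoter window (chr9:20897876-20898125, minus strand, GRCr8), shown as the one D cyclin window that was matched, held 2 GC boxes at 70 and 13 bases and 1 CCAAT box at 132 bases before the start.
Ccnd3: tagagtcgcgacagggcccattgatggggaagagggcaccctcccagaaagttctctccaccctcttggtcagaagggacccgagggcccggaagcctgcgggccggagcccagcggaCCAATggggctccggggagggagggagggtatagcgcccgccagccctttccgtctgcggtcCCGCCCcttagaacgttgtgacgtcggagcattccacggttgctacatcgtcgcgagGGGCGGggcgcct

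The make-up of the D cyclin transcripts differed between the ages. To compare genes with each other, CPM were divided by the length of the annotated exons in kilobases, and the sum of the 3 D cyclins on this scale was 313 ± 41.8 in fetal, 327 ± 3.82 in neonatal and 238 ± 7.64 in adult cells (mean ± SD, n = 3). The lower adult sum depended on this scaling: without division by length the sums were 632 ± 49.0, 652 ± 5.43 and 638 ± 20.6 CPM. In fetal cells Ccnd2 and Ccnd3 made up 41.0% ± 3.37 and 40.2% ± 3.85 of this sum, which is no difference beyond their spread, and Ccnd1 18.8% ± 5.79. In neonatal cells Ccnd3 took the first place with 52.6% ± 1.61, ahead of Ccnd2 with 32.3% ± 1.61 and Ccnd1 with 15.2% ± 0.0526. In adult cells Ccnd1 held 45.5% ± 0.409 and Ccnd3 43.5% ± 1.96, shares that overlapped between libraries, while Ccnd2 held 11.0% ± 1.56. The Ccnd1 share of every adult library (at most 45.8%) was above that of every younger library, of which fetal replicate 3 had the highest (25.5%, against 15.2% and 15.7% in fetal replicates 1 and 2). Without division by length the order changed in fetal cells, where Ccnd1 held 34.9% ± 8.42, Ccnd2 28.8% ± 3.85 and Ccnd3 36.3% ± 5.28, and in adult cells Ccnd1 (64.6% ± 0.535) and Ccnd3 (29.6% ± 1.35) no longer overlapped. The shares are a description and were not tested.

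**Figure D4:**
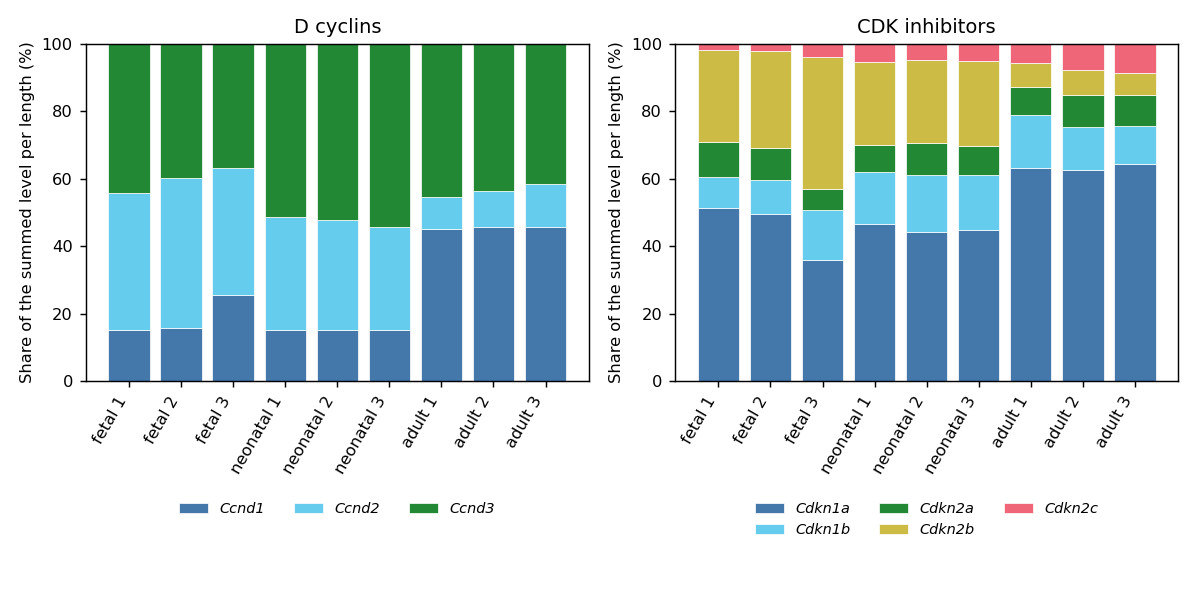
Share of each gene in the summed level per kilobase of exon (%, stacked to 100) of the 3 D cyclins (left) and of the 5 CDK inhibitors (right) in each of the 9 libraries. Ccnd1 replaces most of the Ccnd2 share in adult libraries, and the Cdkn2b share shrinks from 31.7% in fetal to 7.10% in adult cells.

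Among the 5 CDK inhibitors on the same scale per length, Cdkn1a was the most abundant in 8 of the 9 libraries, at 98.7 ± 29.4 in fetal, 65.6 ± 2.05 in neonatal and 120.3 ± 7.03 CPM per kilobase in adult cells. The exception was fetal replicate 3, where Cdkn2b was at 70.8 and Cdkn1a at 65.5 CPM per kilobase. In that library the Cdkn2b share was 38.9%, against 27.2% and 28.9% in fetal replicates 1 and 2. Cdkn2b was the next in fetal and neonatal cells, with 31.7% ± 6.36 and 24.7% ± 0.508 of the summed level, and held 7.10% ± 0.417 in adult cells. There it stood beside Cdkn2c (7.29% ± 1.47) and Cdkn2a (8.95% ± 0.487). The order of these genes depended on the scaling, as Cdkn2a has 705 annotated exon bases and Cdkn2b 2323. Without division by length the adult shares were 9.46% ± 0.55 for Cdkn2b, 5.99% ± 1.24 for Cdkn2c and 3.62% ± 0.215 for Cdkn2a. Cdkn1b followed Cdkn1a in adult cells with 13.2% ± 2.18, and Cdkn1a held 63.4% ± 0.949. The sum of the 5 inhibitors was 213 ± 28.3 in fetal, 145 ± 1.06 in neonatal and 189.6 ± 10.1 CPM per kilobase in adult cells.

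Set against all genes tested, the level per length of Ccnd2 was at percentile 94.8 in fetal, 93.2 in neonatal and 69.0 in adult cells. Cdkn2b went from percentile 88.7 through 78.4 to 52.3, and Cdkn2c from 31.4 through 38.4 to 52.7. Ccnd3 stayed at percentile 91.5 or above at every age, and Cdkn1a at 88.2 or above.

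Genes with the pattern nearest to each of the 9 were found by the root mean square difference of centred log2 CPM over the 9 libraries, as a description. Cdkn2b was nearest to Sh3bp4 (0.101) and Tmod1 (0.101), Ccnd2 to Mlf1 (0.111) and Fbxl7 (0.117), and Ccnd1 to Psme1 (0.0642) and Fdx1l (0.0817). Ccnd3 was nearest to Iqsec2 (0.0613) and Chst14 (0.0656), Mdm2 had Ppif (0.142) as one of its 2 nearest genes, and Cdkn2c was nearest to Oaf (0.131) and Chmp2a (0.134). Cdkn1a was nearest to Limk1 (0.138) and Nme3 (0.141), Cdkn2a to Pgf (0.178) and Pc (0.183), and Cdkn1b to Stim2 (0.0774) and Gpalpp1 (0.0787). None of the 9 was among the 2 nearest genes of another. Sh3bp4 was at 107, 57.9 and 22.8 CPM on average in fetal, neonatal and adult cells, and Psme1, a subunit of the proteasome activator, at 114, 94.4 and 223 CPM.

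Downstream of the D cyclins, 16 of 19 listed genes of the CDK, RB and E2F machinery were tested. The counts for this and the following lists stand beside 70.5% of all genes called between adult and fetal cells. For adult against neonatal cells that share was 63.5%, and for neonatal against fetal cells 36.3%. Between adult and fetal cells 5 were higher and 9 lower, with a median log2 difference of -0.30 against -0.01 for all genes tested. Between neonatal and fetal cells 3 were higher and 5 lower (median -0.23), and between adult and neonatal cells 1 was higher and 5 lower (median -0.06). Without fetal replicate 3, 4 were higher and 4 lower between neonatal and fetal cells (median -0.14). The counts were then 6 and 8 between adult and fetal cells (median -0.21), and 2 and 7 between adult and neonatal cells. Cdk2, the kinase of cyclins E and A, fell from 54.4 ± 4.13 CPM in fetal through 35.3 ± 0.812 in neonatal to 22.0 ± 1.38 in adult cells (mean ± SD, n = 3 here and below; adult against fetal log2 -1.31, edgeR adjusted p = 8.61e-07). Rbl2, which encodes the RB relative p130, rose from 32.6 ± 5.29 CPM in fetal to 61.2 ± 0.881 in neonatal cells (log2 0.91, edgeR adjusted p = 0.000415) and was at 62.1 ± 3.99 CPM in adult cells. Rb1, encoding RB, rose from 25.7 ± 2.56 to 43.7 ± 2.97 CPM in neonatal cells (log2 0.76, edgeR adjusted p = 0.000523) and was at 35.9 ± 2.61 CPM in adult cells. Among the kinase partners of the D cyclins, Cdk4 was at 349 ± 54.1, 285 ± 6.84 and 285 ± 25.5 CPM in fetal, neonatal and adult cells, the adult level being lower than the fetal one (log2 -0.29, edgeR adjusted p = 0.0383) with overlapping libraries. That call was lost without fetal replicate 3 (log2 -0.16, edgeR adjusted p = 0.0566). Cdk6 fell from 19.2 ± 7.21 to 9.23 ± 1.22 CPM in neonatal cells (log2 -1.05, edgeR adjusted p = 0.00984) and was at 6.91 ± 0.873 CPM in adult cells. Without fetal replicate 3 the Cdk6 decrease to neonatal cells was -0.70 (edgeR adjusted p = 0.0025).

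Genes that act in the turnover of D cyclins and CDK inhibitors were mostly lower in adult cells. Of 17 tested genes, 2 were higher and 12 lower between adult and fetal cells (median log2 -0.62 against -0.01 for all genes), and again 2 and 12 between adult and neonatal cells (median -0.49). Between neonatal and fetal cells 1 was higher and 4 lower (median -0.12), and without fetal replicate 3 1 was higher and 7 lower (median -0.09). Without that library 3 were higher and 12 lower between adult and fetal cells (median -0.66). Skp2, the F-box protein that marks p27 for destruction, fell from 30.9 ± 3.77 CPM in fetal through 16.2 ± 0.707 in neonatal to 7.18 ± 1.12 in adult cells (adult against fetal log2 -2.10, edgeR adjusted p = 1.10e-06), while Cdkn1b, the gene of p27, had no called difference in RNA. Usp22, which encodes a deubiquitinase, fell from 82.5 ± 2.65 CPM in fetal to 30.3 ± 1.99 in adult cells (log2 -1.44, edgeR adjusted p = 1.71e-07), and Otud7b, another deubiquitinase gene, from 99.9 ± 4.47 to 43.0 ± 3.48 CPM (log2 -1.22, edgeR adjusted p = 6.86e-07).

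The p53 target list, 26 tested genes that do not include Cdkn1a and Mdm2, moved in both directions. Between adult and fetal cells 11 were higher and 10 lower, with a median log2 difference of -0.05 against -0.01 for all genes. Between adult and neonatal cells 6 were higher and 11 lower (median 0.00495). Between neonatal and fetal cells, where Mdm2 fell, 3 were higher, 4 lower and 19 not called (median -0.05), and without fetal replicate 3, 4 were higher and 7 lower of 27 tested (median -0.17). Without that library 12 were higher and 12 lower between adult and fetal cells, and 9 and 11 between adult and neonatal cells. Apaf1, the core of the apoptosome, fell from 92.4 ± 2.78 CPM in fetal to 32.2 ± 1.47 in adult cells (log2 -1.52, edgeR adjusted p = 1.07e-07), and Pmaip1, encoding the pro-apoptotic NOXA, from 19.0 ± 1.53 to 5.43 ± 0.587 CPM (log2 -1.80, edgeR adjusted p = 1.65e-06). Plk3, which encodes a stress-responsive kinase, rose from 23.2 ± 1.41 to 95.4 ± 28.0 CPM (log2 2.04, edgeR adjusted p = 7.57e-06). The adult libraries are also those with the macrophage transcripts given above, whose part in these adult values was not tested.

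Of 15 tested p53 regulators, 3 were higher and 5 lower between adult and fetal cells (median log2 -0.19), 4 and 4 between adult and neonatal cells (median -0.09), and 1 and 3 between neonatal and fetal cells (median -0.04). Without fetal replicate 3 these counts were 5 and 5, 5 and 5, and 1 and 3. Mdm4, whose product is the partner of MDM2, was at 30.6 ± 1.34 CPM in fetal and 31.9 ± 1.83 in neonatal cells and fell to 18.2 ± 1.74 in adult cells (adult against neonatal log2 -0.81, edgeR adjusted p = 6.07e-05). Usp7, the deubiquitinase of MDM2 and p53, fell from 159 ± 2.93 CPM in fetal to 95.9 ± 8.05 in adult cells (log2 -0.73, edgeR adjusted p = 1.26e-05), and Atm, the kinase that signals DNA breaks to p53, from 38.0 ± 4.73 to 19.8 ± 3.21 CPM (log2 -0.94, edgeR adjusted p = 0.000188).

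Polycomb proteins are known to keep the chromatin of the Cdkn2a and Cdkn2b locus silent. The list of their genes also holds Kdm6b, the gene of a histone demethylase and not of a Polycomb protein. Kdm6b was among those lower in adult than in fetal cells (log2 -0.68, edgeR adjusted p = 0.000827). Of 12 tested genes of this list 3 were higher and 5 lower between adult and fetal cells (median log2 -0.16), 3 and 4 between adult and neonatal cells (median -0.12), and 1 and 2 between neonatal and fetal cells (median -0.04). Without fetal replicate 3 these counts were 3 and 6, 3 and 5, and 1 and 2. Ezh1, a histone methyltransferase of the complex PRC2, rose from 18.1 ± 1.13 CPM in fetal through 32.3 ± 0.474 in neonatal to 51.5 ± 1.22 in adult cells (adult against fetal log2 1.51, edgeR adjusted p = 1.60e-07). Cbx7, a subunit of PRC1, rose from 1.42 ± 0.419 in fetal to 15.05 ± 4.86 CPM in adult cells (log2 3.40, edgeR adjusted p = 9.21e-06), and Rnf2, the catalytic subunit of PRC1, fell from 93.2 ± 4.81 to 40.4 ± 4.61 CPM (log2 -1.21, edgeR adjusted p = 2.19e-06). Ezh2 and Bmi1, also of this list, were lower in adult than in fetal cells (log2 -1.08 and -0.745, edgeR adjusted p = 0.00165 and 0.000152). Without fetal replicate 3 their log2 differences were -0.747 and -0.688.

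**Figure D5:**
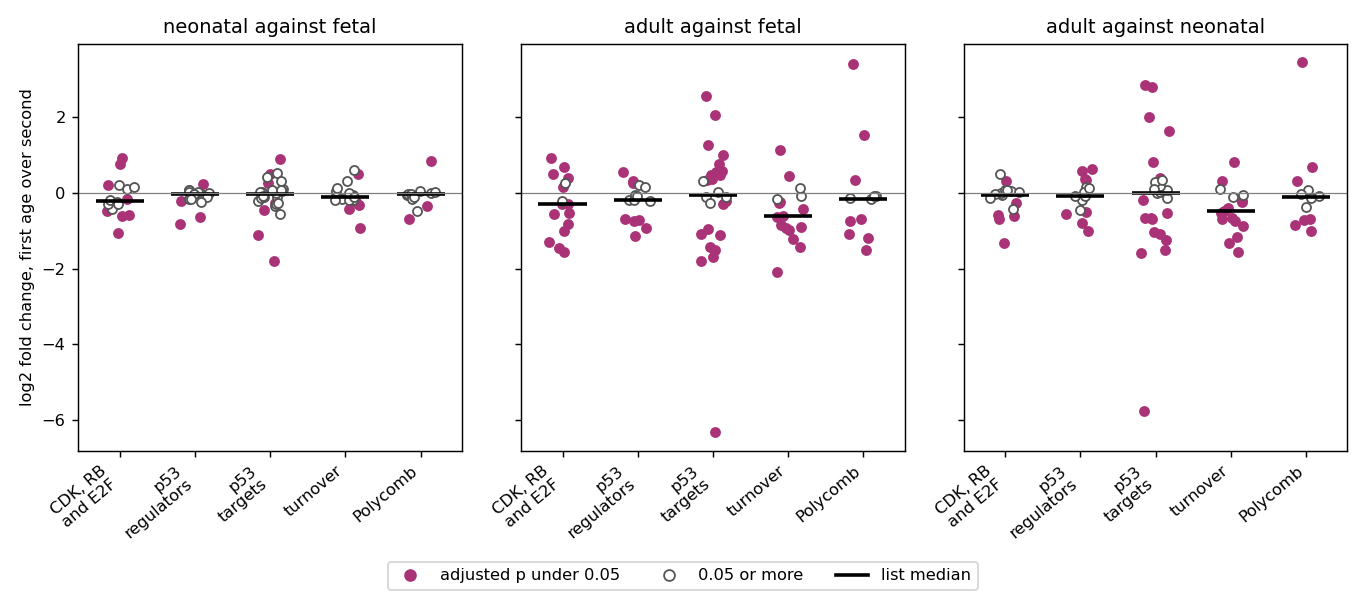
Log2 fold change of each tested gene in 5 lists around the D cyclins, CDK inhibitors and p53, in the 3 pairs of ages; filled points have adjusted p under 0.05 and bars are list medians. The turnover list has a median of -0.62 between adult and fetal cells, and the p53 targets spread to both sides of 0.

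Of 5 other tested genes of CDK inhibitors and their partners, 2 were higher and 2 lower between adult and fetal cells. Without fetal replicate 3 these counts were 2 and 1, and the decrease of Cdkn1c was then not called (log2 -0.92, edgeR adjusted p = 0.154). Cables1, which encodes a CDK-binding protein, rose from 8.71 ± 1.15 CPM in fetal to 33.6 ± 5.81 in adult cells (log2 1.95, edgeR adjusted p = 3.93e-06), and Cdk5rap3 from 56.6 ± 6.04 to 92.5 ± 4.22 CPM (log2 0.71, edgeR adjusted p = 5.50e-05). Cdkn2aip, whose product binds ARF, fell from 39.3 ± 0.810 to 19.6 ± 2.04 CPM (edgeR adjusted p = 5.86e-06). Cdkn1c, which encodes the CIP/KIP inhibitor p57, fell from 8.61 ± 5.53 in fetal to 1.16 ± 0.307 CPM in neonatal cells (log2 -2.87, edgeR adjusted p = 0.00982). Fetal replicate 3 was the highest, at 14.98 CPM, and without it the fetal mean was 5.42 CPM, the decrease to neonatal cells -2.20 on the log2 scale (edgeR adjusted p = 0.017).

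Of 16 proliferation genes, 11 were lower and 0 higher between neonatal and fetal cells (median log2 -0.48), 11 and 0 between adult and fetal cells (median -0.70), and 6 lower and 2 higher between adult and neonatal cells (median -0.11). Without fetal replicate 3, which had the highest sum of these genes, 10 were lower and 0 higher, 11 and 1, and 7 and 4 in the same order, and the neonatal against fetal difference of Mcm4 was no longer called (edgeR adjusted p = 0.0524). Mcm4, a subunit of the replication helicase, fell from 85.8 ± 9.03 CPM in fetal to 46.9 ± 3.29 in adult cells (log2 -0.87, edgeR adjusted p = 1.81e-05). Tyms, the thymidylate synthase, fell from 45.6 ± 2.32 to 15.7 ± 4.31 CPM (log2 -1.54, edgeR adjusted p = 1.94e-05) and Top2a, the topoisomerase of dividing cells, from 212 ± 68.9 to 73.3 ± 6.30 CPM (log2 -1.53, edgeR adjusted p = 9.21e-05). The Top2a difference was -1.24 without fetal replicate 3 (edgeR adjusted p = 4.25e-08). Ccnd1 was highest in adult cells, where the summed proliferation genes were at 905 to 1133 CPM, a little below the 1153 to 1161 CPM of neonatal libraries. A relation between Ccnd1 and these genes was not tested. Of 13 tested genes linked to senescence outside the CDK inhibitors, 10 were higher and 3 lower in adult than in fetal cells, 8 and 2 in adult than in neonatal cells, and 5 and 3 in neonatal than in fetal cells. Of all genes 34.9% were higher and 35.5% lower, 31.6% and 31.8%, and 18.3% and 18% in the same order. The list medians were 2.08, 1.55 and -0.07 on the log2 scale. Without fetal replicate 3 the last was 0.74, and 10 were higher and 2 lower between adult and neonatal cells. The 3 lower in adult than in fetal cells were Igfbp5, Lmnb1 (log2 -1.59) and Hmgb2 (-1.34, and -0.83 without fetal replicate 3). The list was not sorted by the direction in which a gene moves in senescence. Its counts and medians are therefore no measure of senescence. Cxcl1, a chemokine, rose from 7.37 ± 1.06 CPM in fetal to 397 ± 229 in adult cells (log2 5.75, edgeR adjusted p = 3.36e-06) and Icam1, an adhesion receptor, from 96.1 ± 3.73 to 777 ± 189.6 CPM (log2 3.01, edgeR adjusted p = 2.54e-07). Macrophages also express both, and the part of the macrophage transcripts in the values of this list was not tested. Igfbp5, an IGF-binding protein, fell from 159 ± 41.4 to 1.16 ± 0.631 CPM (log2 -7.08, edgeR adjusted p = 1.76e-07).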

How the data were processed

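RNA was measured in 9 libraries of cultured rat cardiac fibroblasts, 3 of each age. Raw counts per gene were deposited by the authors, made per the file headers with featureCounts 1.6.3 on an rn6 annotation with no strand option. Per the submitters' processing notes, Trimmomatic 0.39, STAR 2.5.2b and DESeq2 were also used. A second table deposited by the authors held normalized signal values for 12786 genes, which equalled the counts over 1 size factor per library and served only for those factors. The exons of the 9 genes overlapped those of no other annotated gene.

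Here, genes were kept by filterByExpr, scaled by TMM and tested in edgeR 4.0.16 (R 4.3.3) with a robust quasi-likelihood fit to all 9 libraries. P-values were adjusted by Benjamini-Hochberg over the 11337 genes tested, with a threshold of 0.05. Log2 CPM for nearest patterns used a prior count of 2. The procedure was tested on simulated data in which 200 genes were changed in adult libraries alone. The simulated spread of a gene was the same at all ages, so that test does not cover the unequal spread given next. No 2 libraries of an age agreed within counting error (chi-square over genes). Chi-square over its degrees of freedom was 2.05 to 2.76 between neonatal, 6.76 to 43.0 between adult and 3.94 to 97.3 between fetal libraries. The spread thus differed between ages, whereas the fit to all 9 libraries shares 1 estimate of it per gene. Counting errors treat reads as independent molecules, which holds only in part without molecular identifiers.

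The 9 genes and all gene lists were chosen with earlier results of these data known. Named from each list around the 9 genes were the 3 genes with the smallest p in the test of any age difference and at least 5 CPM in 1 age. Marker genes at 0 counts throughout an age were named for the macrophage and cardiomyocyte lists only. For each of the 9, the 2 genes with the nearest pattern were named, except 1 that is not reported here. Cdk4, Cdk6, Cdkn1c, Ezh2, Bmi1, Kdm6b, Lmnb1, Hmgb2, Col1a2 and Tnnt2 were named after their values were seen. Outside the 9, 210 genes were listed, 192 were in the table and 178 were tested. Alternatives were DESeq2 1.42.0, other scalings, no filter, only 2 ages in the fit, a non-robust fit, a minimum log2 change of 1, a replicate block, no division by length and leaving out each library.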

Additional observations from a re-analysis of the deposited data

How the results depend on the processing

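Every called difference of the 9 genes kept its direction under all 19 alternatives. Of the log2 differences recomputed under the alternatives, 452 kept direction and side of the threshold, 36 lost a call, 13 gained one and 12 changed sign, none of the last past the threshold. A sign change was seen for Cdkn1b between neonatal and fetal cells with DESeq2 (-0.00314), DESeq2 size factors (-0.00307), the authors' size factors (-0.000688), library size alone (-0.17), upper quartile scaling (-0.00964), and, over the fits without 1 library, which ran from -0.0467 to 0.113, without fetal replicate 1 or 2 or neonatal replicate 2. It was seen for Cdkn1b between adult and fetal cells with library size alone (-0.00933) and without adult replicate 1 (fits without 1 library ran from -0.0656 to 0.226), between adult and neonatal cells without adult replicate 1 (-0.0782 to 0.213), and for Cdkn2a between adult and fetal cells without fetal replicate 1 (-0.447 to 0.0226). The cause was not tested.

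Between neonatal and fetal cells the number of the 9 genes called ran from 2 to 7 and that of all genes from 2476 to 4679 when 1 library was left out. It was 7 of the 9 without fetal replicate 3, 2 of the 9 without fetal replicate 2 or any 1 neonatal library, and 2 of the 9 with only the 2 ages in the fit. Requiring a log2 change of at least 1 left 360, 2648 and 1837 genes and 0, 2 and 2 of the 9 genes for neonatal against fetal, adult against fetal and adult against neonatal cells. Library size alone moved the median of all genes to -0.18 between neonatal and fetal and to -0.12 between adult and fetal cells, against -0.01 for both with TMM. Called genes that were higher made up 29.0% instead of 50.4% between neonatal and fetal cells. Without division by exon length, the adult Ccnd1 share was 64.6% and the fetal Cdkn2b share 39.0%, and shares of other genes moved further: fetal Ccnd1 to 34.9% from 18.8%, adult Ccnd2 to 5.78% from 11.0% and adult Cdkn2a to 3.62% from 8.95%.

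Libraries with the same replicate number did not deviate together (r from -0.0649 to 0.0521 over 9 pairs), and 0 of 9 libraries correlated best with their own number. With the replicate block, 3713, 7801 and 6985 genes and 4, 5 and 6 of the 9 genes were called in the same order of comparisons. Cdkn2c, at 117 counts in its lowest library, had the largest counting error of the 9 genes, 8.28%.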
